A study of Homo sapiens with 12 samples.

Results

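A set of 9 enzymes of non-essential amino acid synthesis and of phosphoenolpyruvate formation were followed in HCT116 cells under mitochondrial and endoplasmic reticulum (ER) stress. They were chosen by name as ASNS, PYCR1, ALDH18A1, CTH, CBS, GPT2, GOT1, GOT2, and PCK2, and all 9 were present among the 60708 genes of the count tables. HCT116 is an established human colorectal carcinoma cell line, labeled as wild type and grown in RPMI1640 with fetal bovine serum. Cells were treated for 24 h with 5 µg/mL of oligomycin A (OA), which inhibits the mitochondrial ATP synthase, or with 5 µg/mL of tunicamycin (TN), which inhibits protein N-glycosylation. The paper's methods give a higher OA dose than the sample labels do, and the label value is printed here. Each stressor had its own DMSO-treated cells, called OActrl and TNctrl as in the labels, and the 4 groups of 3 biological replicates made 12 libraries.

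ASNS makes asparagine from aspartate with nitrogen from glutamine. ALDH18A1 carries out the initial steps from glutamate to proline, and PYCR1 the last one in mitochondria. CBS and CTH form the transsulfuration route, which passes the sulfur of homocysteine through cystathionine to cysteine. GPT2 is the mitochondrial alanine transaminase, and GOT1 and GOT2 are the cytosolic and mitochondrial aspartate transaminases of the malate-aspartate shuttle. PCK2 is the mitochondrial enzyme that turns oxaloacetate into phosphoenolpyruvate. Several of these genes, ASNS above all, are textbook targets of ATF4, the transcription factor of the integrated stress response, which binds composite C/EBP-ATF elements. ATF6 and XBP1, the transcription factors of the unfolded protein response, bind other elements.

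Promoter sequence is shown because several of the enzymes moved together in both experiments. RefSeq promoters on GRCh38.p14, each a window of 300 bases from 250 before to 50 after a gene's start, were found for 7 of the 9 enzymes, with 10 windows in all. On both strands, the windows were searched for the C/EBP-ATF core TGATGNAA, the XBP1 and ATF6 element TGACGTGG, and the longer ER stress response element, which overlaps in its last letters with the reverse complement of TGACGTGG. TGATGNAA was found in 3.62% of the 35116 windows of all genes, TGACGTGG in 0.729%, and the ER stress response element in 0.0769%. ASNS and GOT1 held TGATGNAA, ALDH18A1 and GOT2 held TGACGTGG, and no enzyme held the ER stress response element. PCK2, CTH, and CBS held none of the motifs, and GPT2 and PYCR1 had no window. ASNS had 2 windows and CBS had 3, whereas the percentages are over single windows. The lines below give 80 bases around each match, 5′ to 3′ along the gene's own strand, with the matched letters in capitals.
ASNS, chr7:97872433-97872512, minus strand: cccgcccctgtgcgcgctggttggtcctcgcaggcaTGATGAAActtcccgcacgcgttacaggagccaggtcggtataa
GOT1, chr10:99430779-99430858, minus strand: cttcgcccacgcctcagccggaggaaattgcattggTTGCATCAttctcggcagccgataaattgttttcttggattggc
ALDH18A1, chr10:95656728-95656807, minus strand: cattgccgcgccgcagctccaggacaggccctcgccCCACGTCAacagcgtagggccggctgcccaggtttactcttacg
GOT2, chr16:58734329-58734408, minus strand: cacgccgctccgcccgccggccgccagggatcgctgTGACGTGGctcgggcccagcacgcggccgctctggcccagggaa
The ASNS match lay at -68 to -61 from the start used for its window, on the strand of the gene, and the other ASNS window held no match. The GOT1 match lay farther out, at -198 to -191, and read on the opposite strand. In ALDH18A1 the match lay at -60 to -53 on the opposite strand, and in GOT2 at -56 to -49 on the strand of the gene. A match to letters is a description and does not show that a factor binds there.

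Of the 9 enzymes, 4 rose in OA-treated cells and the same 4 rose in TN-treated cells: ASNS, PCK2, GOT1, and GPT2. None fell in either experiment at an adjusted p under 0.05, with exceptions under another fit. The replicate block together with a GC offset called GOT2 lower with both stressors and ALDH18A1 lower with TN. Under it, 12.76% of all genes were called lower with OA and 18.96% with TN. CBS could not be tested, so the enzyme counts are over 8 enzymes. In the OA experiment, 4.48% of the 14681 genes tested were called, 2.76% higher and 1.72% lower. In the TN experiment 6.99% of 14432 genes were called, 3.65% higher and 3.34% lower. With the replicate number as a block, which pairs the TN libraries, the TN count over all genes was 3915 in place of 1009. The median log2 fold change of the 8 enzymes was 1.15 with OA and 0.98 with TN, and 6 of the 8 were above 0 in each, whereas the median over all genes was -0.02 and -0.03. The enzymes and the lists below were chosen with earlier results of these data known. Their comparisons with all genes are therefore descriptions only. Values in the text are CPM, in which the counts of a gene are scaled to the total of its library after TMM normalization. Adjusted p-values are those of the quasi-likelihood test of edgeR, corrected over all genes by the method of Benjamini and Hochberg. Unless a block or a pairing is named, they come from fits that do not pair the replicates.

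**Figure D1:**
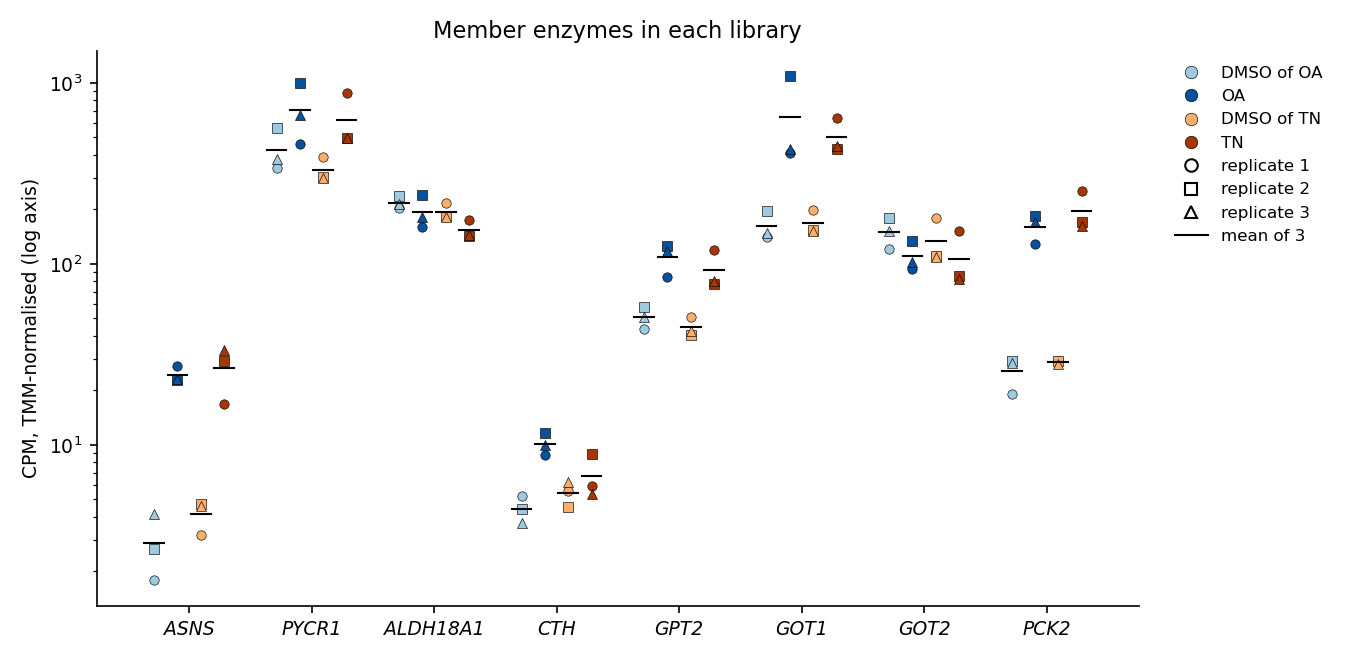
CPM of the 8 enzymes tested (log axis), with 1 point for each library and a bar at the mean of 3. The treated libraries of ASNS, PCK2, GOT1, and GPT2 lie above all DMSO libraries of their own experiment, whereas the means of ALDH18A1 and GOT2 lie below those of DMSO.

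The libraries held between 9884124 and 24983573 counts, and every treated library had a smaller total than every DMSO library of its own experiment. Of 9 markers of colon epithelium, 5 were over 10 CPM in every library. All 9 summed to 4091 to 8499 CPM, most of it from KRT8, KRT18, and KRT19. CEACAM5 was at 0 in all 12 libraries, VIL1 at 0 to 0.277 CPM, KRT20 at 0 to 3.49 CPM, and CDX2 at 5.92 to 15.7 CPM. Markers of leukocytes summed to at most 0.594 CPM in any library and those of hepatocytes to at most 3.43 CPM. The 4 endothelial markers summed to 0.21 to 0.632 CPM in OActrl and to 0.798 to 2.7 CPM with OA. The 5 fibroblast markers summed to 1.42 to 2.44 CPM in OActrl and to 4.67 to 12.9 CPM in the OA libraries. Most of this sum was COL1A1, at 1.15 to 2.19 CPM in OActrl and 3.42 to 12.4 CPM with OA. No other fibroblast marker was above 0.83 CPM in an OA library. The part of the endothelial and fibroblast lists in the OA results was not tested. In bulk RNA, fewer cells that use a gene and less of its RNA in each cell cannot be told apart. The OA calls rest on all 3 DMSO libraries. Without any 1 of them, between 3 and 5 genes in all were called in place of 658, and none of the 9 enzymes was among them. Without OA replicate 3, 91 genes were called.

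ASNS, the asparagine synthetase gene, had the largest fold change of the enzymes with OA. ASNS (ENSG00000070669) lies at chr7:97851677-97872542 on the minus strand of hg38. Its level was 1.78, 2.65, and 4.17 CPM in OActrl and 27.4, 22.8, and 23.0 CPM in the OA libraries. In the TN experiment it was 3.18, 4.73, and 4.60 CPM in DMSO and 16.8, 29.1, and 33.6 CPM with TN. Every treated library was thus several times above every DMSO library, and TN replicate 1 was the lowest of the treated ones. ASNS rose by 3.09 on the log2 scale with OA (SE 0.37, 95% interval 2.23 to 3.94, adjusted p = 0.0149 by edgeR), an 8.5-fold change. With TN it rose by 2.67 (SE 0.34, interval 1.87 to 3.47, adjusted p = 0.00707 by edgeR), a 6.36-fold change. The OA call was lost without OActrl replicate 1, 2, or 3 (log2 fold change 2.89, 3.09, and 3.45, adjusted p = 0.0773, 0.0933, and 0.115 by edgeR), and the TN call without TNctrl replicate 3 (2.75, adjusted p = 0.0545).

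The level of ASNS is likely to be a lower bound. Its exons span 4896 bases, of which 2415 (49.3%) also belong to RP5-1090P18.1, a gene annotated on the same strand. This gene shares 99.5% of the canonical ASNS transcript, which leaves 11 of its 2385 bases unshared. The counting option that the authors used gives a read that overlaps 2 genes to neither of them, and RP5-1090P18.1 itself had 3 to 17 counts in each library. The ASNS counts of 34 to 391 in each library would then come mostly from exons of other ASNS transcripts, and the fold change would be that of these exons. The overlap was measured in Gencode v44, which is not the release that the authors counted with and may differ from it in these exons.

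**Figure D2:**
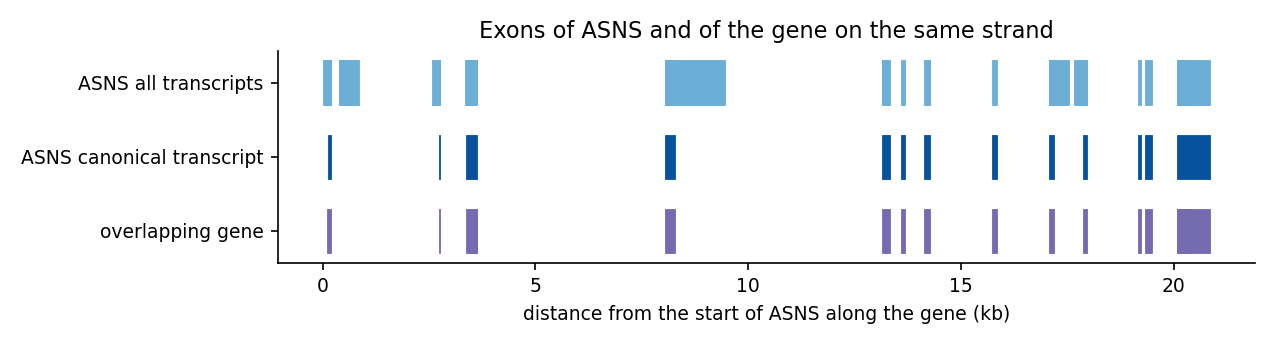
Exons of all ASNS transcripts, of the canonical ASNS transcript, and of the overlapping gene on the same strand, against the distance in kb from the start of ASNS. Nearly every exon of the canonical transcript coincides with an exon of the overlapping gene, so that 49.3% of all ASNS exon bases are shared.

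PCK2, the mitochondrial phosphoenolpyruvate carboxykinase gene, rose about as far. PCK2 (ENSG00000100889) lies at chr14:24094053-24110598 on the plus strand. It measured 19.2, 29.2, and 28.2 CPM in OActrl and 128, 183, and 169.6 CPM upon OA treatment. It measured 28.9, 29.0, and 28.1 CPM in TNctrl and 253, 171, and 162 CPM upon TN treatment. The lowest treated library was more than 4 times the highest DMSO library in each experiment. PCK2 rose by 2.65 on the log2 scale with OA (SE 0.28, interval 2.00 to 3.29, adjusted p = 0.0116 by edgeR) and by 2.77 with TN (SE 0.25, interval 2.20 to 3.34, adjusted p = 0.00301 by edgeR). The TN call held without any 1 library, at adjusted p from 0.000453 to 0.0315 (edgeR). The OA call was lost without OActrl replicate 1, 2, or 3, at adjusted p = 0.0678, 0.0846, and 0.127 (edgeR). PCK1, the cytosolic form known from liver and kidney, had 0 counts in all 12 libraries.

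Of the aspartate transaminases, the cytosolic one rose. GOT1 (ENSG00000120053, chr10:99396870-99430624, minus strand), which makes or uses aspartate in the cytosol, rose with both stressors. Its level was 141, 195, and 147 CPM in DMSO and 409.7, 1092, and 433 CPM with OA. In the TN experiment the values were 198, 155, and 153 CPM in DMSO and 637, 431, and 445 CPM with TN. OA replicate 2 stood far above the other OA libraries, but the lowest treated library was still more than 2 times the highest DMSO library in each experiment. GOT1 rose by 2.00 on the log2 scale with OA (SE 0.41, interval 1.05 to 2.95, adjusted p = 0.0393 by edgeR) and by 1.58 with TN (SE 0.24, interval 1.03 to 2.14, adjusted p = 0.0115 by edgeR). Without OA replicate 2 the OA value was 1.38 and still past the threshold. The OA call was lost without OActrl replicate 1, 2, or 3 or OA replicate 3 (adjusted p = 0.141, 0.125, 0.196, and 0.0766 by edgeR), and the TN call without TNctrl replicate 2 or 3 (0.0758 and 0.0724).

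GOT2 (ENSG00000125166, chr16:58707131-58734342, minus strand), the mitochondrial partner of GOT1, did not pass the test with either stressor. It measured 120.2, 179, and 152 CPM in DMSO and 93.7, 134, and 103 CPM with OA, and the ranges overlapped. In the TN experiment it measured 179, 110.0, and 109 CPM in DMSO and 152, 85.3, and 82.0 CPM with TN, where replicate 1 was the highest of each group. The log2 fold change was -0.45 with OA (SE 0.26, interval -1.04 to 0.14, adjusted p = 0.332 by edgeR) and -0.32 with TN (SE 0.33, interval -1.09 to 0.44, adjusted p = 0.604 by edgeR). With the replicate block and the GC offset together, it passed at -0.56 with OA and -0.35 with TN (adjusted p = 0.0317 and 0.0201 by edgeR).

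Within a library, the ratio of GOT1 to GOT2 does not depend on how libraries are scaled. The log2 ratio of their counts was 0.23, 0.13, and -0.05 in OActrl and 2.13, 3.03, and 2.07 upon OA treatment. It was 0.14, 0.49, and 0.48 in TNctrl and 2.07, 2.34, and 2.44 upon TN treatment. The 2 transcripts were thus counted about equally often in DMSO, at 1.08 and 1.29 GOT1 counts for each GOT2 count, and GOT1 was counted 5.31 and 4.86 times as often after OA and TN. The mean log2 ratio was 2.3 higher with OA and 1.91 higher with TN. The exact two-sided permutation p was 0.1 for each, the smallest that 3 against 3 libraries allow, and 0.125 after Benjamini-Hochberg adjustment over the 10 ratio tests.

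**Figure D3:**
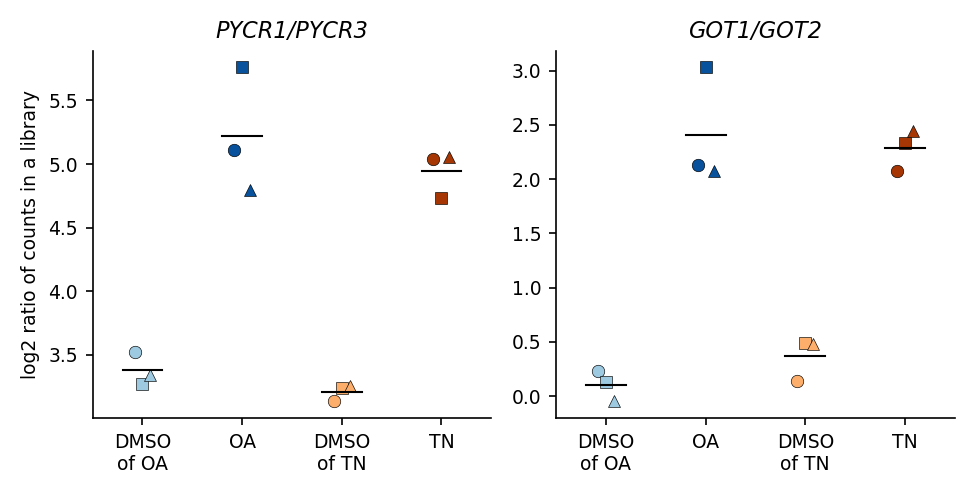
Log2 ratio of the counts of 2 enzymes in the same library, with 1 point for each library and a bar at the mean of 3. The treated libraries lie above their DMSO libraries for PYCR1/PYCR3 and GOT1/GOT2 in both experiments.

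GPT2 (ENSG00000166123, chr16:46884362-46931289, plus strand), which forms alanine and 2-oxoglutarate in mitochondria, rose about 2-fold with each stressor. Its level was 43.9, 57.7, and 51.1 CPM in DMSO and 85.0, 125, and 118 CPM with OA. It was 51.1, 40.7, and 42.5 CPM in TNctrl and 119.9, 77.5, and 80.5 CPM upon TN treatment. The groups did not overlap, but the call is close to the threshold. GPT2 rose by 1.11 on the log2 scale with OA (SE 0.25, interval 0.52 to 1.69, adjusted p = 0.04995 by edgeR) and by 1.05 with TN (SE 0.24, interval 0.48 to 1.62, adjusted p = 0.0461 by edgeR). The OA call was lost without each of OActrl replicates 1, 2, and 3 and OA replicates 2 and 3 (adjusted p from 0.0547 to 0.243 by edgeR), and with scaling to total counts (0.88, adjusted p = 0.0534 by edgeR). The TN call was lost without each TN library or TNctrl library except TN replicate 1 (adjusted p from 0.068 to 0.195 by edgeR). With the replicate block the TN value was 1.03 (adjusted p = 0.0024 by edgeR). GPT, the cytosolic alanine transaminase, had 0 to 14 counts in each library and was not tested.

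The proline enzymes had smaller values. PYCR1 (ENSG00000183010, chr17:81932384-81942412, minus strand) had the highest mean level per kb of exon in all 4 groups. It measured 339, 562, and 382 CPM in OActrl and 457, 1003, and 664 CPM upon OA treatment, and the groups overlapped. With TN it measured 877, 497, and 496 CPM, above the 389, 303, and 297 CPM of all 3 DMSO libraries. The log2 fold change was 0.73 with OA (SE 0.34, interval -0.05 to 1.51, adjusted p = 0.243 by edgeR) and 0.92 with TN (SE 0.28, interval 0.26 to 1.57, adjusted p = 0.0955 by edgeR). With TN replicates paired by number, the value was 0.88 and passed the test (adjusted p = 0.00381 by edgeR). The TN value also passed with DESeq2 and with an offset for GC content (0.91 and 0.76, adjusted p = 0.0298 by DESeq2 and 0.00747 by edgeR). The longest PYCR1 transcript has a GC content of 63.1%, higher than that of 93.4% of the genes tested. Of the PYCR1 exon bases, 14.1% are shared with a gene on the same strand and 15.6% with one on the opposite strand, whose reads cannot be told apart if the counting ignored strand.

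ALDH18A1 (ENSG00000059573, chr10:95605941-95656711, minus strand), which feeds glutamate into the proline route, did not pass the test with either stressor. It measured 203, 237, and 215 CPM in DMSO and 161, 242, and 180.4 CPM with OA (log2 fold change -0.17, SE 0.24, interval -0.72 to 0.38, adjusted p = 0.70 by edgeR). It measured 217, 185, and 182 CPM in TNctrl and 175, 142, and 145 CPM upon TN treatment. All 3 TN libraries were below all 3 DMSO libraries, but the difference did not pass the test (log2 fold change -0.34, SE 0.19, interval -0.79 to 0.12, adjusted p = 0.338 by edgeR). With TN replicates paired by number the adjusted p was 0.0979, and with the GC offset as well it was 0.023 (log2 fold change -0.33, edgeR).

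PYCR3, the cytosolic pyrroline-5-carboxylate reductase, was set beside PYCR1. It measured 29.5, 58.4, and 37.6 CPM in DMSO and 13.2, 18.5, and 23.9 CPM with OA, and 44.4, 32, and 31.2 CPM in DMSO and 26.7, 18.6, and 14.9 CPM with TN. Its libraries thus did not overlap, in the direction opposite to PYCR1. The log2 fold change of PYCR3 was -1.18 with OA (SE 0.35, adjusted p = 0.0936 by edgeR) and -0.84 with TN (SE 0.29, adjusted p = 0.124 by edgeR). These values passed the threshold in 6 and 4 of 9 alternatives. With TN replicates paired by number the TN value was -0.86 (adjusted p = 0.00713 by edgeR). The log2 ratio of PYCR1 to PYCR3 was 3.27 to 3.52 in OActrl and 4.80 to 5.76 upon OA treatment, a difference of 1.85 in the mean. It was 3.13 to 3.25 and 4.74 to 5.06 in the TN experiment, a difference of 1.74. The exact permutation p was 0.1 for each ratio (adjusted p = 0.125 over the 10 tests).

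The transsulfuration enzymes had few counts. CTH (ENSG00000116761, chr1:70411218-70439851, plus strand), which releases cysteine from cystathionine, had 56 to 120 counts in each library. It measured 5.19, 4.43, and 3.71 CPM in DMSO and 8.85, 11.6, and 9.96 CPM with OA, without overlap. In the TN experiment it measured 5.53, 4.56, and 6.23 CPM in DMSO and 5.90, 8.94, and 5.32 CPM with TN, where only replicate 2 was above all DMSO libraries. The log2 fold change with OA was 1.19 (SE 0.30, interval 0.50 to 1.87), which missed the threshold at adjusted p = 0.0634 by edgeR and passed it in 5 of 9 alternative analyses, at adjusted p from 0.00507 to 0.0849 over all of them. With TN it was 0.31 (SE 0.30, interval -0.39 to 1.01, adjusted p = 0.588 by edgeR).

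CBS (ENSG00000160200, chr21:43053191-43076943, minus strand), which joins homocysteine to serine, could not be measured. It had 0 counts in 11 libraries and 1 count in TN replicate 3. The assembly holds a copy, CBSL, at chr21:6444869-6467513, which had 0 counts in all 12 libraries. Of the stretches of 100 bases in the CBSL transcript, 95.8% were found unchanged in a CBS transcript, and reads from them map to both places. Counts of reads that map to 1 place therefore say little about the level of CBS, and no limit on its RNA is drawn from the zeros.

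The 2 stressors were compared by the contrast of their changes over all 12 libraries. No enzyme differed at an adjusted p under 0.05, and neither did any of the 15429 genes tested (0 called by edgeR, 2 by DESeq2), of which 348 (2.26%) had an unadjusted p under 0.05. The intervals show how large a difference could have been missed. The OA change minus the TN change on the log2 scale was 0.32 for ASNS (95% interval -0.79 to 1.43), -0.19 for PCK2 (-0.88 to 0.49), 0.33 for GOT1 (-0.66 to 1.31), and -0.01 for GPT2 (-0.69 to 0.67). It was -0.27 for PYCR1 (-1.19 to 0.65), 0.09 for ALDH18A1 (-0.48 to 0.66), and -0.18 for GOT2 (-1.06 to 0.70). CTH had the largest difference, 0.79 (interval -0.05 to 1.64, unadjusted p = 0.0624 by edgeR), and a differing response of CTH to OA and TN was thus neither shown nor bounded closely.

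**Figure D4:**
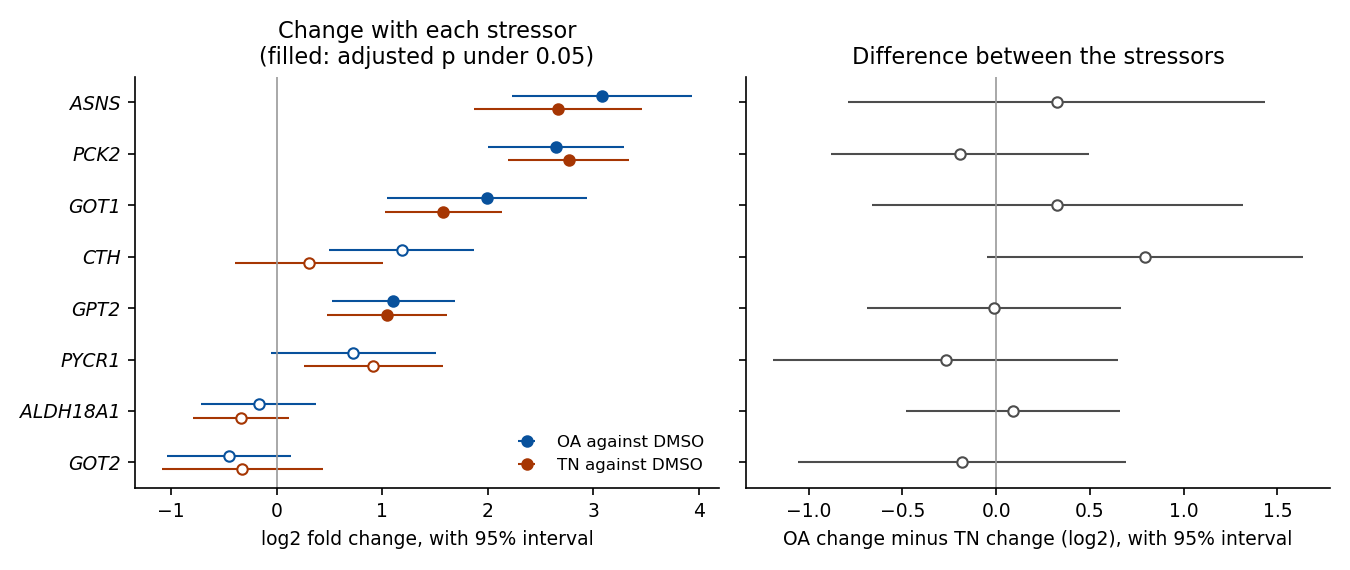
Log2 fold change of each enzyme with OA and TN (left) and the difference between the stressors (right), with 95% intervals. Filled points have an adjusted p under 0.05, which is reached by ASNS, PCK2, GOT1, and GPT2 on the left and by no enzyme on the right.

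Libraries without overlap were also counted. With OA, 5 of the 8 enzymes tested had every treated library above every DMSO library (ASNS, CTH, GPT2, GOT1, and PCK2) and 0 had them below, where 16.3% and 15.5% of all genes tested did. With TN, 5 had them above (ASNS, PYCR1, GPT2, GOT1, and PCK2) and 1 below (ALDH18A1), where 15.9% and 16.8% of all genes did.

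Levels were compared between enzymes as CPM per kb of exon that no same-strand gene shares. In OActrl the order was PYCR1 at 173 ± 47.9 CPM per kb (SD, n = 3), GOT1 at 66.6 ± 12.2, ALDH18A1 at 58.1 ± 4.70, GOT2 at 40.1 ± 7.79, GPT2 at 8.0 ± 1.09, PCK2 at 6.11 ± 1.32, CTH at 1.84 ± 0.306, and ASNS at 1.16 ± 0.487. The libraries of GOT1 and ALDH18A1 overlapped, as did those of GPT2 and PCK2 and those of CTH and ASNS. After OA, GOT1 at 266 ± 159.8 CPM per kb overlapped PYCR1 at 286 ± 111, and PCK2 at 38.4 ± 6.78 stood above GPT2 at 17.2 ± 3.40. After TN the leading pair was again PYCR1 at 252 ± 88.6 and GOT1 at 208 ± 47.6 CPM per kb, and PCK2 at 46.9 ± 12 was on a level with ALDH18A1 at 40.9 ± 4.91. ASNS reached 9.84 ± 1.03 CPM per kb with OA and 10.7 ± 3.51 with TN, for the exons not shared. Its place in the order is likewise that of these exons and may not be that of the whole gene.

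The other enzymes of these routes were taken from 5 lists of 61 genes, of which 43 were tested in each experiment. With OA, 3 rose and 0 fell, where 2.76% and 1.72% of all genes tested did. With TN, 5 rose and 0 fell, where 3.65% and 3.34% did. Lower calls depended on the fit. With TN replicates paired by number, 9 of the 43 genes were called higher and 8 lower, with PYCR3 among the latter, where 11.8% and 15.3% of all genes were. With scaling to total counts 4 were called higher and 4 lower with TN, where 3.67% and 6.06% of all genes were. With OA, DESeq2 called 5 higher and 3 lower, where 7.81% and 5.31% of all genes were, and the GC offset called 7 and 6, where 8.51% and 7.57% were. The median log2 fold change over the lists was -0.13 with OA and -0.19 with TN, and 19 and 15 of the 43 genes were above 0. In the list of asparagine, aspartate, and glutamine genes, 1 of 8 tested rose with each stressor. This was ASS1, which joins aspartate to citrulline, at 64.5 to 72.0 CPM in DMSO against 157 to 221 CPM with OA and at 86.3 to 93.0 CPM against 219.6 to 307 CPM with TN (log2 fold change 1.51 in each, adjusted p = 0.0219 and 0.0093 by edgeR). GLUL, which makes glutamine, was at 248 to 278 CPM in DMSO and 171 to 204 CPM with OA. In the TN experiment it was at 275 to 317 CPM in DMSO and 194 to 245 CPM with TN. Its log2 fold change of -0.45 with OA and -0.46 with TN did not pass the test (adjusted p = 0.242 and 0.195 by edgeR). The log2 ratio of ASNS to GLUL was 3.61 higher with OA and 3.08 higher with TN (exact permutation p = 0.1 each, adjusted 0.125).

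In the list of proline, ornithine, and arginine genes, 1 of 6 tested rose with each stressor, ARG2, the mitochondrial arginase. It rose by 2.24 on the log2 scale with OA (SE 0.44, adjusted p = 0.0352 by edgeR) and by 1.39 with TN (SE 0.24, adjusted p = 0.0173 by edgeR), from 10.3 to 15.3 CPM in DMSO to 37.6 to 101 CPM with OA. Without OA replicate 2, the highest library, the OA value was 1.60 (adjusted p = 0.0186 by edgeR). In the list of methionine, transsulfuration, cysteine, and glutathione genes, 1 of 14 tested rose, GCLC, the catalytic subunit of the enzyme that starts glutathione synthesis. GCLC measured 66.2 to 99.7 CPM in DMSO and 298 to 517 CPM with OA (log2 fold change 2.24, SE 0.29, adjusted p = 0.0157 by edgeR), and it rose by 1.63 with TN (SE 0.22, adjusted p = 0.00814 by edgeR). GCLC uses cysteine, which CTH can supply, and the source of cysteine in these cells was not tested.

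Among the other transaminases, 0 of 5 tested were called with OA and 1 with TN. This was PSAT1 of serine synthesis, which had a log2 fold change of 1.31 with OA (SE 0.36, adjusted p = 0.0765 by edgeR) and rose by 1.36 with TN (SE 0.20, adjusted p = 0.0106 by edgeR). OA replicate 2, at 91.7 CPM, was far below the other OA libraries at 242 and 197 CPM, and without it PSAT1 passed the test (1.62, adjusted p = 0.00898 by edgeR), as it did in 6 of 9 alternatives. In the list of phosphoenolpyruvate and malate-aspartate shuttle genes, 0 of 10 were called with OA and 1 with TN, the malic enzyme gene ME1 (0.82, SE 0.19, adjusted p = 0.0431 by edgeR). With OA, ME1 measured 98.5, 173, and 80.0 CPM against 47.1 to 61.7 CPM in DMSO, and its log2 fold change of 1.17 (SE 0.33, adjusted p = 0.0831 by edgeR) passed the threshold in 6 of 9 alternatives, with a value of 1.82 under the GC offset. The TN call of ME1 was lost with scaling to total counts, without a filter, and in 1 fit of all libraries (adjusted p from 0.066 to 0.102). The median of this list was -0.45 with OA and -0.27 with TN. The OA calls of ASS1, ARG2, and GCLC were lost without OActrl replicate 1, 2, or 3 (adjusted p from 0.0773 to 0.186 by edgeR), and those of ASS1 and ARG2 also without OA replicate 3 (0.0746 and 0.0671). With TN, the calls of ASS1, ARG2, GCLC, PSAT1, and ME1 were lost without TNctrl replicate 2 or 3 (0.0584 to 0.227), and those of all but ASS1 also without TN replicate 3 (0.0518 to 0.151), those of ARG2, PSAT1, and ME1 without TN replicate 2 (0.0533 to 0.15), and that of ME1 without TNctrl replicate 1 (0.121).

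**Figure D5:**
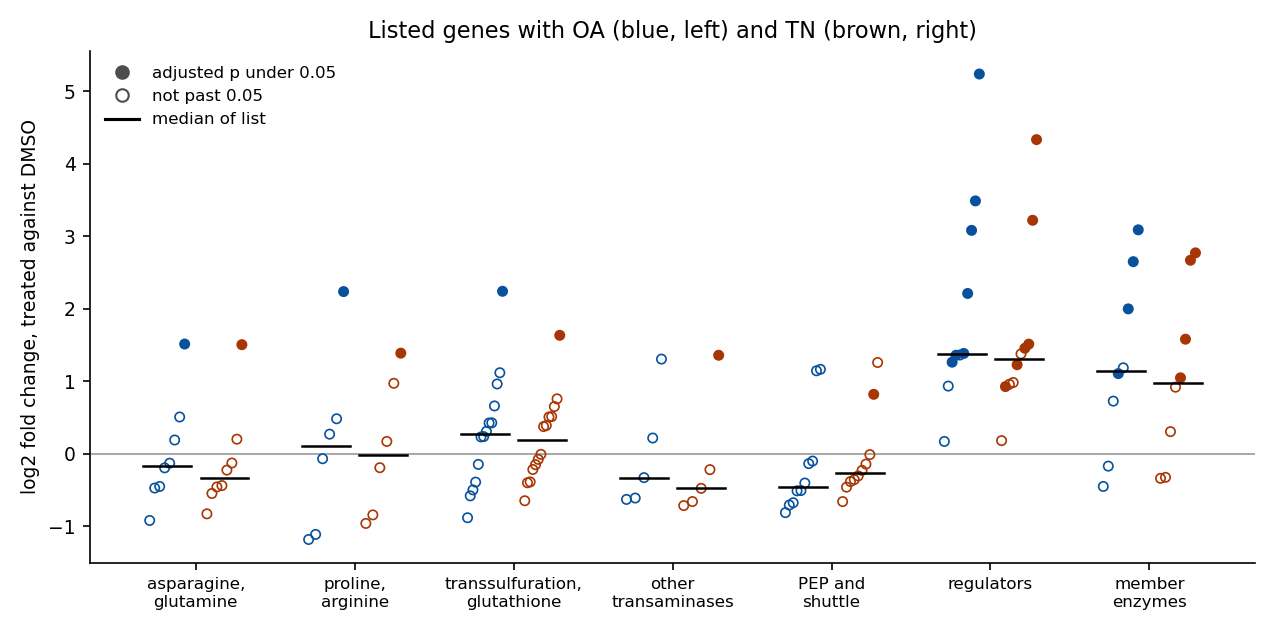
Log2 fold change with OA (left of each pair) and TN (right) of the genes tested in the 5 pathway lists, of 10 regulators, and of the 8 enzymes, with bars at the medians. Filled points have an adjusted p under 0.05. Most pathway genes lie near or below 0, with list medians from -0.47 to 0.27, whereas the medians of regulators and of the enzymes lie between 0.98 and 1.37.

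Transcription factors and stress genes were listed separately as regulators, and whether they act on these enzymes in these cells was not tested. Of 10 tested, 7 rose with OA and 6 with TN, where 2.76% and 3.65% of all genes tested rose, and 0 fell. ATF4 measured 462, 614, and 460.3 CPM in DMSO and 1126, 1575, and 1308 CPM with OA, and 501, 438, and 461 CPM in DMSO and 1539, 1128, and 1173 CPM with TN. ATF4 rose by 1.38 on the log2 scale with OA (SE 0.25, adjusted p = 0.028 by edgeR) and by 1.46 with TN (SE 0.20, adjusted p = 0.00906 by edgeR). DDIT3, which encodes CHOP, rose from 7.73 to 9.68 CPM in DMSO to 179 to 574 CPM with OA, and from 10.7 to 21.7 CPM to 305 to 409 CPM with TN (log2 fold change 5.23 and 4.33, adjusted p = 0.01 and 0.0024 by edgeR). Without OA replicate 2 the OA value of DDIT3 was 4.53 (adjusted p = 0.000588 by edgeR). TRIB3, a pseudokinase gene induced downstream of ATF4, rose by 3.08 with OA and 3.22 with TN (SE 0.41 and 0.40, adjusted p = 0.0157 and 0.00662 by edgeR). CEBPB, a C/EBP transcription factor, rose by 2.21 with OA and 1.51 with TN (SE 0.37 and 0.27, adjusted p = 0.025 and 0.0206 by edgeR). The OA calls of ATF4, DDIT3, TRIB3, and CEBPB were lost without OActrl replicate 1, 2, or 3 (adjusted p from 0.0678 to 0.182 by edgeR), and those of ATF4 and CEBPB also without OA replicate 3 (0.0883 and 0.0653). With TN, ATF4 and CEBPB were lost without TNctrl replicate 2 or 3 (0.0607 to 0.0891), and CEBPB also without TNctrl replicate 1 or TN replicate 2 or 3 (0.0575, 0.052, and 0.0519).

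Among genes with a mean of at least 10 CPM, the pattern of log2 CPM across the 12 libraries was compared with that of ASNS by Pearson's r, as a description. The 12 libraries share 2 treatments and their DMSO groups, so that r mostly reflects the change upon treatment. The closest of 8993 genes were NIBAN1 (0.969), GOLPH3L (0.965), GDF15 (0.965), PTPRM (0.961), LIPH (0.958), and IRF2BP2 (0.958), followed by PTPDC1, PDE2A, SYNE1, and MAP1B (0.957 each). Of the enzymes, PCK2 was at rank 24 with 0.946, close to DDIT3 at rank 22 with 0.947, GOT1 at rank 341 with 0.846, and GPT2 at rank 454 with 0.812. PYCR1 was at rank 1334 with 0.576, whereas ALDH18A1 and GOT2 were negative at -0.65 and -0.66 (ranks 7353 and 7439). CTH, with a mean of 6.66 CPM, was below the level set for this ranking.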

How the data were processed

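RNA was sequenced from 12 cultures of HCT116 cells. Reads were aligned by the authors to hg38 with STAR, which also counted them over a Gencode annotation, and the raw counts of each gene were deposited. The strand column is not given in the sources used here. The labels and the paper call the replicates biological. The authors also deposited DESeq2 results for each stressor (log2 fold changes, standard errors, p-values, and a test score), and the deposited results were not used.

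After filterByExpr and TMM in edgeR 4.0.16 (R 4.3.3), each stressor was compared with its DMSO group by two-sided quasi-likelihood F tests, and standard errors were derived from F. Precision is limited by 3 replicates. ASNS and CTH had low counts, and the part of counting error in their spread was not tested. Gene locations are from Gencode v44.

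The alternatives were DESeq2 1.42.0, its size factors in edgeR, total-count scaling, a filter of 10 counts in each library, no filter, 1 fit of all 12 libraries, GC offsets (span 0.3), a replicate block, and leaving out each library. Same-numbered TN libraries deviated together from their group means, with correlations of 0.64, 0.41, and 0.43 across genes. The numbers shared in the labels were therefore taken to pair them in the replicate block, whereas the main TN fit left the pairing out. Replicates 2 and 3 also deviated together across numbers (0.44 and 0.38). TN replicate 2 correlated more with TNctrl replicate 3 (0.44) than with TNctrl replicate 2 (0.41), so the pairing by number is uncertain.

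The 9 enzymes and all lists were chosen with earlier results of these data known. Named genes were the 9 enzymes, paralogues (1 is not reported here), ATF4 and DDIT3, at most 4 called genes of each list by lowest p, and the 10 genes closest to ASNS. The scripts were tested on simulated data.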

Additional observations from a re-analysis of the deposited data

How the results depend on the processing

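The calls of ASNS, PCK2, and GOT1 with both stressors and of GPT2 with TN kept their direction and threshold under all alternatives that used every library. Direction did not change for any enzyme in either experiment. The number of genes called was less stable. With OA it was 1927 by DESeq2, 1572 without a filter, 3914 with the replicate block, 1681 in the fit of 12 libraries, 2361 with the GC offset, 3768 with block and GC offset, and 3 to 1179 without 1 library. With TN it was 2162 by DESeq2, 1648 without a filter, 3915 with the block, 3137 with the GC offset, 5367 with both, and 151 to 2361 without 1 library. Scaling to total counts moved the median of all genes to -0.23 (OA) and -0.18 (TN) and the higher and lower calls from 405 and 253 to 352 and 395 (OA) and from 527 and 482 to 529 and 875 (TN). Of the enzymes, block and GC offset together called 7 in each experiment, with GOT2 lower in both and ALDH18A1 lower with TN. That fit called 12.9% of all genes higher and 12.76% lower with OA, and 18.22% and 18.96% with TN. Without 1 library, 0 to 4 enzymes were called with OA and 1 to 4 with TN.

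Of the pathway genes, 8 were called with OA by DESeq2, 7 without a filter, and 16 with the block. In the fit of 12 libraries 9 were called, 13 with the GC offset, 17 with block and GC offset, and 0 to 4 without 1 library. The block called 8 higher and 8 lower with OA, where 11.67% and 14.99% of all genes were. The fit of 12 libraries called 5 and 4, where 5.79% and 5.11% of all genes were. Block and GC offset together called 8 and 9, where 12.9% and 12.76% of all genes were. With TN, 8 were called with total counts, 17 with the block, 14 with the GC offset, and 24 with both. Without 1 library, 0 to 9 pathway genes were called with TN. The 14 were 8 higher and 6 lower, where 11.2% and 10.53% of all genes were. The 24 were 13 higher and 11 lower, where 18.22% and 18.96% of all genes were. Between stressors, 2 genes differed by DESeq2, 25 without a filter, 1 with the GC offset, 6 with block and GC offset, and 0 to 4 without 1 library (4 without OA replicate 2).

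The difference between stressors changed sign for GPT2 (0.0529 by DESeq2, 0.0531 with its size factors, 0.0065 with total counts, 0.0635 without a filter). Without 1 library the difference ran from -0.54 to 0.13 for PYCR1, -0.0404 to 0.273 for ALDH18A1, -0.15 to 0.29 for GPT2, -0.21 to 0.63 for GOT1, -0.50 to 0.22 for GOT2, and -0.38 to 0.11 for PCK2. The log2 ratio of GPT2 to GPT with TN, 0.15 higher with all libraries, ran from -1.15 to 1.37 at these low counts of GPT. The cause of these shifts was not tested.

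For OA, same-numbered libraries had correlations of 0.62, 0.54, and 0.09 and were not taken as pairs, although each OA library correlated best with its own number. The replicate block brought PYCR1 (0.69, adjusted p = 0.0251 by edgeR) and CTH (1.19, adjusted p = 0.0126) past the threshold with OA.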
